A study of Homo sapiens with 6 samples.

Results

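The genes described here are those of the TNF (tumour necrosis factor) superfamily and of NF-kB signalling in MDA-MB-231GlnIND cells, set against parental MDA-MB-231 cells. They were chosen by gene symbol from the deposited count tables: every symbol that begins with TNFSF or TNFRSF and a number, TRAF1 to TRAF7, and a list of NF-kB subunits, inhibitors, kinases and induced genes. Symbols with a hyphen (TNFRSF14-AS1 and TNFSF12-TNFSF13) were left out. The rule took 57 of 28265 gene rows and used no measured value.

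MDA-MB-231 is an established line of human breast cancer of the triple-negative type, and MDA-MB-231GlnIND, called GlnIND below, is a derivative kept without glutamine. GlnIND cells had spent more than 6 weeks in glutamine-free RPMI 1640 with 10% dialyzed fetal bovine serum, which has lost small molecules. Parental cells grew in RPMI 1640 with glutamine and 10% undialysed serum. Population, glutamine and serum thus differed at the same time, and their parts in any difference cannot be told apart. PolyA RNA was sequenced from 3 GlnIND and 3 parental libraries. The labels do not say that these came from separate cultures, or whether the GlnIND line is 1 clone. All p-values thus measure only the spread between the libraries, which may be technical.

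TNF superfamily ligands are proteins of the cell surface that bind TNFRSF receptors, and many are also released. Receptors with a cytoplasmic death domain can trigger cell death or inflammatory signalling, and many of the others recruit TRAF adaptor proteins directly. Through TRAF proteins and the ubiquitin ligases BIRC2 and BIRC3 the receptors activate IkB kinases, which release NF-kB dimers (of RELA, RELB, REL, NFKB1 and NFKB2) from IkB inhibitors. Several NF-kB targets, such as NFKBIA and TNFAIP3, encode inhibitors of the same pathway. MDA-MB-231 is known for constitutive NF-kB activity.

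Total counts were 21276815 to 24594248 per GlnIND library and 18256219 to 21741371 per parental library. Values are CPM, read counts scaled to library size with TMM factors, which are not divided by gene length and are compared only within a gene. Parental 1 stood apart from the other libraries. The correlation of its log-scale counts was 0.986 with parental 2 and 0.985 with parental 3, against 0.992 between those and 0.994 between each pair of GlnIND libraries. Counts over the members are therefore also given without it. Of the markers listed for this line, VIM, CD44, AXL, EGFR and CAV1 summed to 9662 to 9822 CPM in GlnIND and 6841 to 7363 CPM in parental libraries. VIM, AXL and EGFR were called higher, and CD44 (-0.30) and CAV1 (-0.50) lower on the log2 scale. ESR1, PGR and CDH1 were below 0.5 CPM in all 6. EPCAM, an epithelial adhesion molecule, was at 1.88 to 2.61 CPM in GlnIND and 12 to 17.2 CPM in parental libraries. The leukocyte genes PTPRC, CD3E, CD14 and ITGAM summed to 0.583 to 0.691 CPM in GlnIND and 0.229 to 0.728 CPM in parental libraries, with CD3E and ITGAM at 0. The sum of 5 fibroblast genes was 16.9 to 18.9 CPM in GlnIND and 5.03 to 7.38 CPM in parental libraries, led by COL1A1. Of these genes COL1A1, PDGFRB and LUM were called higher, LUM with 172 GlnIND and 0 parental counts, while DCN and COL1A2 were at or near 0. The sum of 3 endothelial genes was 3.95 to 4.71 CPM in GlnIND and 2.40 to 2.68 CPM in parental libraries, nearly all of it PECAM1, with CDH5 and VWF at or near 0. The part of these markers in the results was not tested.

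Transcripts of this pathway were mostly lower in GlnIND cells. Of the 57 genes, 47 had enough counts to be tested. In edgeR's quasi-likelihood test 28 of them (59.6%) were called lower and 7 (14.9%) higher at an adjusted p under 0.05, and 12 were not called. Over all 13949 tested genes 27.9% were called lower and 28.4% higher, 56.3% in either direction. A call of more than 2-fold lower was made for 16 of the 47 tested members, against 5.26% of all tested genes. A call of more than 2-fold higher was made for 1 of the 47, against 9.84% of all tested genes. All GlnIND libraries lay below all parental libraries in 29 of the 47, against 31.3% of all tested genes. They lay above them in 9 of the 47, against 33.7% of all tested genes. The median log2 fold change, GlnIND over parental, was -0.54 over the tested members and 0.03 over all tested genes. Without parental 1 the calls were 33 lower and 8 higher, and the median was -0.73. Calls over all genes then also rose, from 7853 to 9280, with a median of 0.02. With library totals in place of TMM factors the median of all genes moved to 0.18, and 24 members were lower and 9 higher. Over all genes 8166 were called with library totals.

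The 7 genes called higher were RELA, IKBKB, TRAF5, TRAF6, TNFSF12, TNFSF13B and TNFRSF11B. The largest falls, of 7.20-fold or more, were in the ligand TNFSF18, the receptors TNFRSF9, TNFRSF1B and TNFRSF25, the adaptor TRAF1, the ubiquitin ligase BIRC3 and the adhesion molecule ICAM1. For TNFSF18, TNFRSF9 and TNFRSF25 no GlnIND library had more than 6 counts, so the size of their fitted falls is uncertain. All values are of RNA from whole cultures, in which fewer cells that express a gene and less RNA per cell cannot be told apart.

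**Figure D1:**
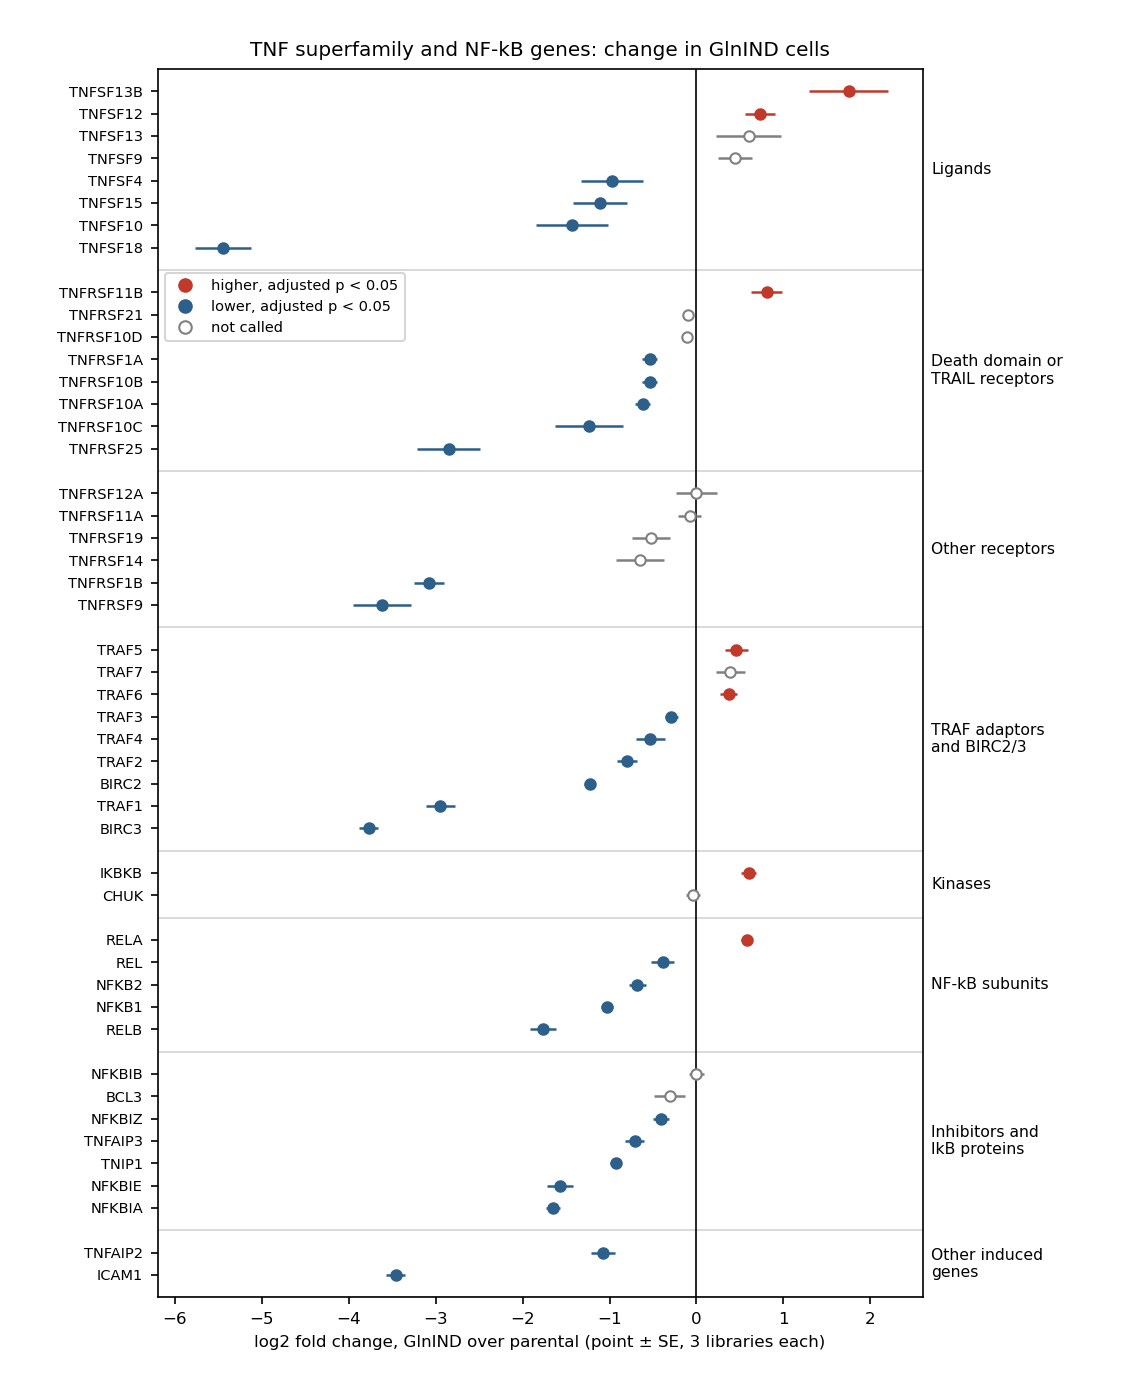
Log2 fold change, GlnIND over parental, of the 47 tested genes on a linear axis, grouped by role, with points at the edgeR estimate and bars of 1 SE from 3 libraries per group. Filled blue points are the 28 genes called lower, filled red points the 7 called higher and open points the 12 not called, and points left of 0 prevail in most of the roles shown.

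The NF-kB subunits moved in both directions. NFKB1, whose product is cut to the p50 subunit and also retains dimers in the cytoplasm, had 56.8, 63.0 and 61.3 CPM in GlnIND libraries and 127, 121 and 123 CPM in parental libraries. All GlnIND values lay far below all parental values, and NFKB1 fell by 1.03 on the log2 scale (edgeR SE 0.0686, adjusted p = 2.29e-06). RELB, the partner of p52 in the noncanonical branch, had 6.46, 5.87 and 5.22 CPM in GlnIND libraries and 16.7, 22.9 and 20.3 CPM in parental libraries. It was the subunit with the largest fall, of 3.42-fold (log2 fold change -1.77, edgeR SE 0.150, adjusted p = 1.05e-05). NFKB2, the precursor of p52, had 39.6, 38.7 and 40.2 CPM in GlnIND libraries and 55.2, 63.4 and 71.3 CPM in parental libraries. The groups did not overlap, and NFKB2 fell by 0.68 on the log2 scale (adjusted p = 0.000293 in edgeR).

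RELA, which encodes the transactivating p65 subunit, was the exception. It had 133, 129 and 130.0 CPM in GlnIND libraries and 91.0, 85.4 and 85.7 CPM in parental libraries, so that every GlnIND library lay above every parental one. RELA rose by 0.58 on the log2 scale (edgeR SE 0.0626, adjusted p = 4.62e-05). The 40 tested genes nearest to it on chromosome 11 stood at a median of 0.75 on the same scale, and with that shift removed RELA stood at -0.17 (adjusted p = 0.0457 in edgeR). REL, the c-Rel subunit, had 23.8, 24.6 and 25.9 CPM in GlnIND libraries and 40.2, 29 and 28.3 CPM in parental libraries. The groups did not overlap, but parental 1 was well above the rest. REL fell by 0.39 on the log2 scale (adjusted p = 0.0318 in edgeR), and by 0.22 without parental 1 (adjusted p = 0.0244 in edgeR). Its call was lost without any 1 of the GlnIND libraries, and with upper-quartile factors (-0.30), library totals (-0.24) or the neighbour shift removed (-0.35).

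Inhibitors of the pathway, grouped here with the nuclear IkB proteins NFKBIZ and BCL3, were lower or not called. All 7 genes of this group could be tested, and 5 fell, 0 rose and 2 were not called (median log2 fold change -0.71). The lower share was 71.4%, against 27.9% of all tested genes, and rests on few genes. NFKBIA, which encodes the IkB alpha inhibitor and is itself an NF-kB target, had 25.2, 24.9 and 24.7 CPM in GlnIND libraries and 81.8, 79.6 and 73.2 CPM in parental libraries. The GlnIND values were nearly equal to each other and all below the parental values, a 3.14-fold difference (log2 fold change -1.65, edgeR SE 0.0779, adjusted p = 3.03e-07). NFKBIE, the IkB epsilon inhibitor, had 9.82, 10.2 and 9.67 CPM in GlnIND libraries and 22.9, 32 and 33.3 CPM in parental libraries. It fell 2.97-fold, with parental 1 the lowest of the parental libraries but still more than 2-fold above each GlnIND library. NFKBIB, the IkB beta inhibitor, had 30.5, 29.5 and 29.2 CPM in GlnIND libraries and 27.8, 30.3 and 31.2 CPM in parental libraries. The groups overlapped, and the log2 fold change was 0.00 (edgeR SE 0.0865, adjusted p = 0.988). With the shift of its neighbouring genes removed it stood at -0.32 and was called lower (adjusted p = 0.0131 in edgeR).

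TNFAIP3, the ubiquitin-editing protein A20 that shuts off signalling downstream of TNF receptors, had 11.3, 11.7 and 12.6 CPM in GlnIND libraries and 17.9, 19.7 and 20.7 CPM in parental libraries. The groups did not overlap, and TNFAIP3 fell by 0.71 on the log2 scale (edgeR SE 0.109, adjusted p = 0.000413). TNIP1, an A20-binding protein, had 136, 136 and 140.2 CPM in GlnIND libraries and 273, 263 and 249 CPM in parental libraries. It too was lower in every GlnIND library, by 0.93 on the log2 scale (adjusted p = 2.37e-06 in edgeR). The nuclear IkB proteins were named after their values were seen. NFKBIZ fell by 0.41 on the log2 scale (adjusted p = 0.00495 in edgeR). BCL3 had a log2 fold change of -0.31 (adjusted p = 0.163 in edgeR), and it passed the test without parental 1 (-0.48) and with the neighbour shift removed (-0.79).

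RefSeq promoter sequences (GRCh38.p14) were matched by symbol for 43 of the 57 genes. In the 250 bases before the annotated transcript start, the kB motif of GGG, any pair of bases and TTTCC, read on both strands, was found in 8 of the 43 (18.6%) and in 473 of all 27305 promoters (1.73%). The 8 genes were NFKBIA, TNFAIP3, NFKB1, BIRC3, TNFRSF9, REL, NFKBIZ and TRAF3, and all 8 were called lower in GlnIND cells. The rule names NF-kB subunits, inhibitors and induced genes by symbol, so the excess over all promoters is no independent evidence. Of the 213 tested genes with the motif 33.3% were called lower, against 28.9% of all 10767 tested genes with a promoter sequence. The 213 include these 8, and of the 205 outside the members 63 (30.7%) were lower. TNFAIP3 held the motif at 2 places, separated by a pair of bases. The 250 bases of NFKBIA (chr14:35404750-35404999, minus strand), TNFAIP3 (chr6:137867009-137867258, plus strand), NFKB1 (chr4:102501109-102501358, plus strand) and BIRC3 (chr11:102317234-102317483, plus strand) are shown 5′ to 3′ on the gene's strand, because these genes carry the motif and are inhibitors, a subunit and the ubiquitin ligase described next. Capitals mark the match, which reads as its reverse complement (GGAAA, the free pair and CCC) where it lies on the other strand.
NFKBIA: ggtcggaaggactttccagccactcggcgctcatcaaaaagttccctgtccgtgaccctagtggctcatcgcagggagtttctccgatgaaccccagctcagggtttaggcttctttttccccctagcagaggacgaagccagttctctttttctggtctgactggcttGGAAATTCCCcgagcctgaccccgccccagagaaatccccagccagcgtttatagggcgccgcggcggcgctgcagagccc
TNFAIP3: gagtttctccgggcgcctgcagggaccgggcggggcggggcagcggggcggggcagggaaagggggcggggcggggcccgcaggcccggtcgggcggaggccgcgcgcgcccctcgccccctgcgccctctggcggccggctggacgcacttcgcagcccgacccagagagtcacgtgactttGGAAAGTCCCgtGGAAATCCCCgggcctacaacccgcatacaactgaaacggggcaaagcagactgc
NFKB1: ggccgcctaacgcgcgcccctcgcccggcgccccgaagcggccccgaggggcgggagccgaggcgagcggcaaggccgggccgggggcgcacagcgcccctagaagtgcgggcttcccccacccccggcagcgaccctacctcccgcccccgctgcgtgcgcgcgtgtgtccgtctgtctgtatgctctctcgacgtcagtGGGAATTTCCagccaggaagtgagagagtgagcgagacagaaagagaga
BIRC3: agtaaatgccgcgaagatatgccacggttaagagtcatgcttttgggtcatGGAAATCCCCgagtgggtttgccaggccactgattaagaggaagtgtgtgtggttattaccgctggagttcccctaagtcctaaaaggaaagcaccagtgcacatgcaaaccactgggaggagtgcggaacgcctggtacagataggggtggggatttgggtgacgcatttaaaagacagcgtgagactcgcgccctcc

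The matches of the other genes are shown with 10 bases on either side, to compare the bases that the motif leaves free: TNFRSF9 (chr1:7940894-7940923, minus strand), REL (chr2:60881518-60881547, plus strand), NFKBIZ (chr3:101827757-101827786, plus strand) and TRAF3 (chr14:102777406-102777435, plus strand).
TNFRSF9: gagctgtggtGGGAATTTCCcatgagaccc
REL: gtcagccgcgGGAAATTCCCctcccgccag
NFKBIZ: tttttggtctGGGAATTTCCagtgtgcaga
TRAF3: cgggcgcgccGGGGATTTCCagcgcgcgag
NFKB1, NFKBIA, NFKBIZ, REL and TNFRSF9 had AA as the free pair, and this form stood in 43 of all promoters (0.157%). In 6 of the 8 genes every match lay within 81 bases of the start, and in BIRC3 and NFKBIZ it began 199 and 223 bases before it. ICAM1, TRAF1 and TNFRSF1B, which fell strongly, did not hold the motif in this window. The ICAM1 window did hold ggaaattccg, which differs from the reverse complement of the motif only in its last base. The looser motif of GGG, any 4 bases and TCC includes the stricter one. It stood in 16 of the 43 (37.2%) and in 19.4% of all promoters. The kappaB consensus, a further spelling, stood in 10 of the 43 (23.3%) and in 9.57% of all promoters. Of the tested genes with the looser motif 28.3% were called lower, and of those with the consensus 29.8%. Both shares were near the 28.9% of all tested genes with a promoter sequence. A match is a description of letters and not a measured binding site.

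**Figure D2:**
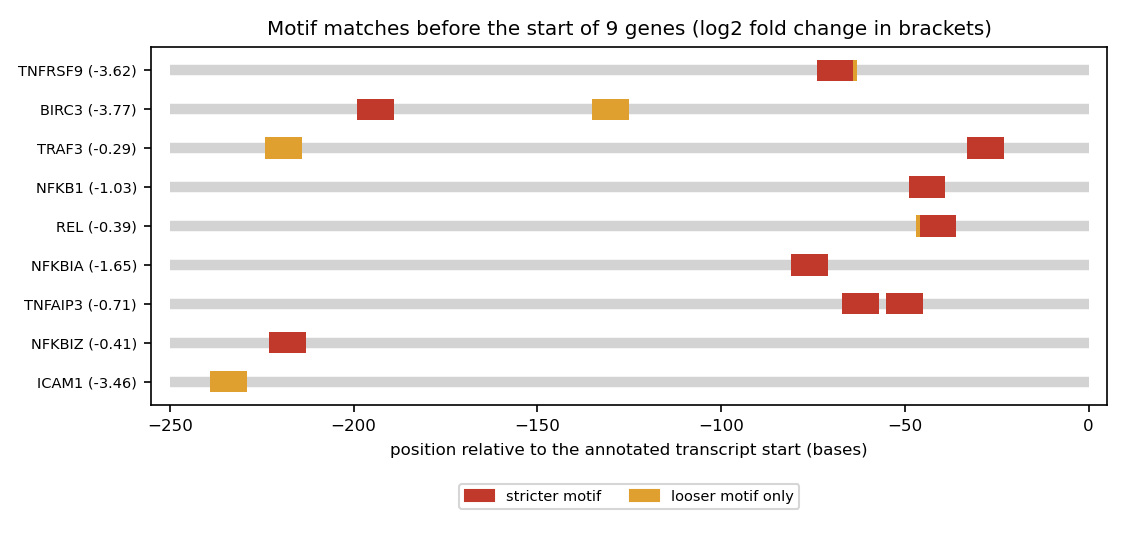
Positions of the stricter kB motif (red) and of further matches of the looser one (orange) in the 250 bases before the transcript start of 9 genes, on either strand, with the log2 fold change of each gene, GlnIND over parental, in brackets. The stricter motif lies within 81 bases of the start in TNFRSF9, TRAF3, NFKB1, REL, NFKBIA and TNFAIP3, farther away in BIRC3 and NFKBIZ, and ICAM1 has only a looser match.

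The adaptors and ubiquitin ligases between receptor and kinase were lower in 6 of 9 cases, higher in 2 and not called in 1. These are 66.7% lower and 22.2% higher, against 27.9% and 28.4% of all tested genes. BIRC3, also known as cIAP2, blocks cell death at TNF receptors and had 23.8, 26.2 and 23.0 CPM in GlnIND libraries and 379.8, 325 and 292 CPM in parental libraries. The groups were more than 10-fold apart, and BIRC3 fell 13.7-fold (log2 fold change -3.77, edgeR SE 0.110, adjusted p = 3.17e-08). BIRC2, the related cIAP1 encoded beside it on chromosome 11, had 112, 118 and 121 CPM in GlnIND libraries and 280.1, 274 and 269 CPM in parental libraries. The groups did not overlap there either, with a fall of 1.23 on the log2 scale (edgeR SE 0.0603, adjusted p = 3.67e-07). The 40 tested genes nearest to BIRC2 and to BIRC3 had medians of -0.98 and -0.94, however. With that shift removed BIRC2 stood at -0.25 (adjusted p = 0.00610 in edgeR), while BIRC3 stood at -2.83 (adjusted p = 9.13e-08 in edgeR).

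TRAF1, a TRAF protein that is itself induced by NF-kB, had 3.32, 3.66 and 2.92 CPM in GlnIND libraries and 20.5, 27.6 and 28.5 CPM in parental libraries. All GlnIND libraries were far below the parental ones, and TRAF1 fell 7.74-fold (log2 fold change -2.95, edgeR SE 0.167, adjusted p = 9.23e-07). TRAF2, which carries BIRC2 and BIRC3 to the receptor, had 15.4, 14.6 and 13.6 CPM in GlnIND libraries and 22.7, 28.2 and 25.2 CPM in parental libraries. It fell by 0.80 on the log2 scale (adjusted p = 0.000237 in edgeR), with no overlap between the groups. TRAF3, which restrains the noncanonical branch, TRAF4, TRAF5, TRAF6, the adaptor of interleukin-1 and Toll-like receptors, and TRAF7 were named after their values were seen. TRAF3 and TRAF4 fell by 0.29 and 0.53 and TRAF5 and TRAF6 rose by 0.46 and 0.37 on the log2 scale, with edgeR adjusted p between 0.00854 and 0.0229. The calls of TRAF3 and TRAF4 were lost with upper-quartile factors, at -0.20 and -0.44, and with library totals, at -0.14 and -0.38. With the neighbour shift removed TRAF3 stood at -0.65 and TRAF6 at 0.66, both called (adjusted p = 0.000113 and 0.000461 in edgeR). The TRAF4 call was also lost without each library but parental 1, and the TRAF5 call without any 1 of the GlnIND libraries. Without parental 2 TRAF5 stood at 0.29 (adjusted p = 0.0472 in edgeR), and the TRAF6 call was lost at 0.29. TRAF7 had a log2 fold change of 0.39 (adjusted p = 0.0663 in edgeR) and was not called. It was called higher with upper-quartile factors (0.48), library totals (0.54), no filter (0.39), the replicate block (0.42), DESeq2 (0.38) and limma-voom (0.43). Without parental 1 (0.17) or parental 3 (0.52) TRAF7 was called higher as well. The gene shares 23.0% of its exon bases with CASKIN1 on the opposite strand.

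The catalytic IkB kinases did not fall. IKBKB, the kinase of the canonical branch, had 36.8, 39.4 and 39.99 CPM in GlnIND libraries and 26.2, 25.3 and 25.2 CPM in parental libraries. It rose 1.51-fold without overlap (log2 fold change 0.60, edgeR SE 0.0822, adjusted p = 0.00021), and with the neighbour shift removed it stood at 0.38 (adjusted p = 0.00382 in edgeR). CHUK, the kinase that acts on NFKB2 in the noncanonical branch, had 97.8, 94.1 and 96.6 CPM in GlnIND libraries and 89.3, 101 and 107 CPM in parental libraries. Its groups overlapped, and the log2 fold change was -0.04 (edgeR SE 0.0773, adjusted p = 0.681).

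ICAM1, an NF-kB-induced adhesion molecule that binds leukocyte integrins, had 5.29, 6.08 and 5.07 CPM in GlnIND libraries and 61.1, 56.6 and 62.8 CPM in parental libraries. The groups were more than 9-fold apart and tight within themselves, and ICAM1 fell 11-fold (log2 fold change -3.46, edgeR SE 0.106, adjusted p = 3.84e-08). TNFAIP2, a further TNF-induced gene, had 20.5, 20.2 and 22.2 CPM in GlnIND libraries and 34.6, 50.4 and 47.9 CPM in parental libraries. It fell by 1.08 on the log2 scale (adjusted p = 0.000132 in edgeR), with parental 1 the lowest parental library but above all GlnIND libraries.

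**Figure D3:**
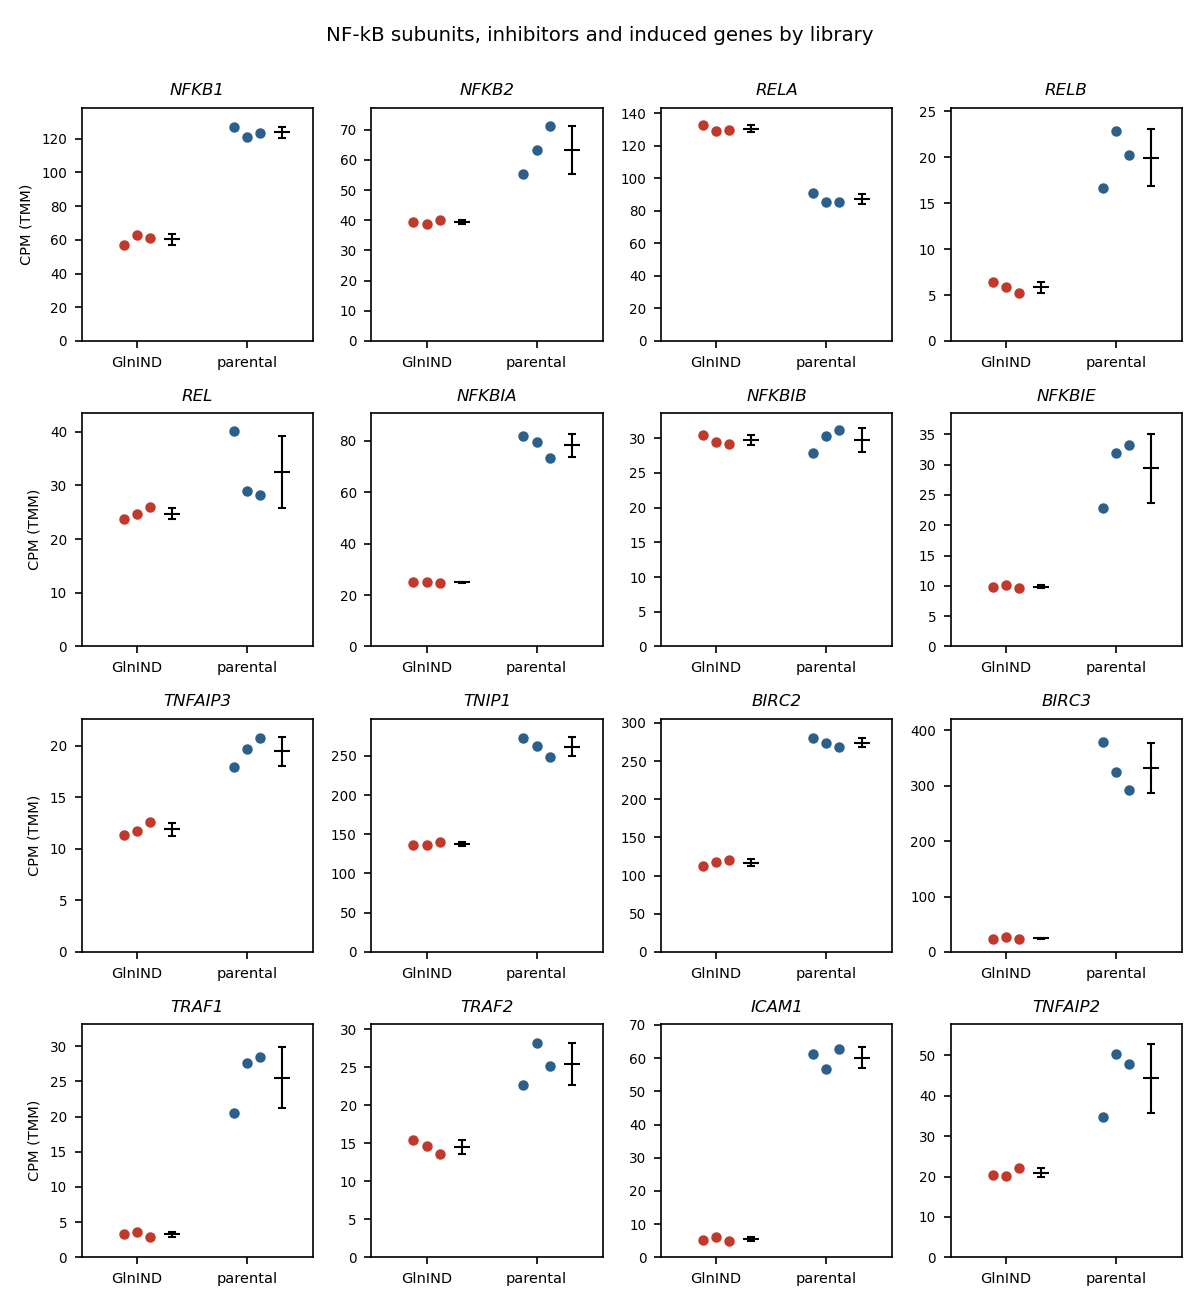
TMM-scaled CPM of 16 NF-kB subunits, inhibitors, adaptors and induced genes in 3 GlnIND libraries (red, left) and 3 parental libraries (blue, right), each panel on its own linear axis from 0, with the mean and 1 SD beside the points. RELA lies higher in GlnIND, NFKBIB overlaps between the groups, and the other genes shown lie lower in GlnIND, BIRC3, TRAF1 and ICAM1 most of all.

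Both TNF receptors were lower. TNFRSF1B, known as TNF receptor 2, which lacks a death domain, had 1.52, 1.33 and 1.04 CPM in GlnIND libraries and 11.2, 10.8 and 10.9 CPM in parental libraries. The parental values were nearly equal and all GlnIND values lay far below, an 8.46-fold difference (log2 fold change -3.08, edgeR SE 0.174, adjusted p = 9.37e-07). TNFRSF1A, the broadly expressed death-domain receptor for TNF, was named after its values were seen and had 57.5, 58.2 and 58.3 CPM in GlnIND libraries and 73.5, 90.4 and 89.0 CPM in parental libraries. It fell by 0.54 on the log2 scale (edgeR SE 0.0886, adjusted p = 0.00063). The genes around it had a median of -0.46, and with that shift removed it stood at -0.08 (adjusted p = 0.474 in edgeR).

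TNFRSF9, a costimulatory receptor of T cells also known as CD137, had 0.269, 0.166 and 0.154 CPM in GlnIND libraries and 2.28, 2.52 and 2.55 CPM in parental libraries. No GlnIND library had more than 6 counts, the number taken as the detection floor, and the sums were 14 counts in GlnIND and 139 in parental libraries. TNFRSF9 fell 12.3-fold (log2 fold change -3.62, edgeR SE 0.331, adjusted p = 1.72e-05). Its ligand TNFSF9, named after its values were seen, had a log2 fold change of 0.44 (edgeR SE 0.196, adjusted p = 0.0801). It had 3.68, 3.66 and 3.68 CPM in GlnIND libraries and 2.38, 2.40 and 3.33 CPM in parental libraries, without overlap, and it passed the test with upper-quartile factors (0.53), library totals (0.59) and without parental 3 (0.60).

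The receptors with a death domain or of the TRAIL group were 8, all tested. Of these 5 fell, 1 rose and 2 were not called (median log2 fold change -0.54). The shares were 62.5% lower and 12.5% higher, against 27.9% and 28.4% of all tested genes. TRAIL, the product of TNFSF10, can induce death of tumour cells through TNFRSF10A and TNFRSF10B, while TNFRSF10C and TNFRSF10D act as decoys. TNFRSF10A had 35.0, 37.2 and 38.3 CPM in GlnIND libraries and 58.1, 59.3 and 52.4 CPM in parental libraries. All GlnIND libraries were lower, and TNFRSF10A fell by 0.62 on the log2 scale (adjusted p = 0.000176 in edgeR). TNFRSF10B, named after its values were seen, had 119, 129 and 130.2 CPM in GlnIND libraries and 159, 189.6 and 202 CPM in parental libraries. It fell by 0.54 on the log2 scale (adjusted p = 0.000672 in edgeR), also without overlap.

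TNFRSF10C had 0.942, 0.999 and 0.384 CPM in GlnIND libraries and 2.13, 1.2 and 2.08 CPM in parental libraries. The nearest values of the groups were close, and TNFRSF10C fell by 1.24 on the log2 scale (edgeR SE 0.390, adjusted p = 0.0215), a call lost without GlnIND 3 (-0.91) or parental 3 (-1.15). TNFRSF10D, the other membrane decoy, was not called, at a log2 fold change of -0.11 (adjusted p = 0.156 in edgeR), but was with the neighbour shift removed (-0.23). TNFRSF11B, which encodes osteoprotegerin, a soluble decoy for TNFSF11 that also binds TRAIL, had 6.10, 5.70 and 5.03 CPM in GlnIND libraries and 3.08, 2.75 and 3.74 CPM in parental libraries. It was the receptor that rose, by 0.81 on the log2 scale (edgeR SE 0.179, adjusted p = 0.00349). TNFSF10 itself was near the floor, with 0.538, 0.333 and 0.307 CPM in GlnIND libraries and 1.29, 1.26 and 0.624 CPM in parental libraries. It fell by 1.43 on the log2 scale (edgeR SE 0.417, adjusted p = 0.0151), a call lost without GlnIND 2 (-1.34), GlnIND 3 (-1.28) or parental 2 (-1.31).

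A ligand and its receptor were both lower for TNFSF15 and TNFRSF25. TNFRSF25, a death-domain receptor for TNFSF15, had 0.135, 0.250 and 0.230 CPM in GlnIND libraries and 1.64, 1.32 and 1.61 CPM in parental libraries. The GlnIND libraries had at most 6 counts each, and TNFRSF25 fell 7.20-fold (log2 fold change -2.85, edgeR SE 0.362, adjusted p = 0.000129). It shares 6.30% of its exon bases with PLEKHG5. TNFSF15 had 0.717, 0.832 and 0.461 CPM in GlnIND libraries and 1.29, 1.49 and 1.56 CPM in parental libraries. The groups did not overlap, and it fell by 1.11 on the log2 scale (edgeR SE 0.314, adjusted p = 0.0129), a call lost without GlnIND 3 (-0.90).

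TNFSF18, the ligand of the T cell receptor GITR, had the largest fall of all members. It had 0.135, 0.125 and 0.154 CPM in GlnIND libraries and 7.09, 7.04 and 4.73 CPM in parental libraries. GlnIND libraries held 10 counts together, each below the floor, and parental libraries 357. The fitted difference was 43.7-fold (log2 fold change -5.45, edgeR SE 0.324, adjusted p = 1.26e-06). Its receptor TNFRSF18 was not detected above the floor in any library. TNFSF4, the OX40 ligand, named after its values were seen, fell by 0.97 on the log2 scale (edgeR SE 0.354, adjusted p = 0.0400) with overlap between the groups, and without parental 2 it stood at -0.60 (adjusted p = 0.169 in edgeR). Its call was also lost without GlnIND 2 (-0.91) or GlnIND 3 (-0.84), and with upper-quartile factors (-0.88), library totals (-0.82) or limma-voom (-0.90). The replicate block (-0.93) and removal of the neighbour shift (-0.63) took it away too.

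In the opposite direction TNFSF13B, the B cell survival factor BAFF, had 1.08, 1.08 and 1.07 CPM in GlnIND libraries and 0.0992, 0.343 and 0.520 CPM in parental libraries. The GlnIND values were nearly equal and lay above all parental values, and TNFSF13B rose 3.35-fold (log2 fold change 1.75, edgeR SE 0.452, adjusted p = 0.00828). It was the member called more than 2-fold higher, on 78 GlnIND and 18 parental counts. Its known receptors TNFRSF13B, TNFRSF13C and TNFRSF17 were at or below the floor in all libraries. TNFSF12, which encodes TWEAK, was named after its values were seen and rose (log2 fold change 0.73, edgeR SE 0.175, adjusted p = 0.00563). It shares 35.6% of its exon bases with the readthrough row TNFSF12-TNFSF13, which had 0 counts, so reads that match both may have been left uncounted, and its level is uncertain. The same holds for TNFSF13, at 55.5% of its exon bases, whose log2 fold change was 0.60 (adjusted p = 0.191 in edgeR).

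TNFRSF12A, the TWEAK receptor Fn14, showed how far parental 1 could decide a value. It had 67.4, 64.8 and 68.0 CPM in GlnIND libraries and 36.8, 79.4 and 83.5 CPM in parental libraries. Parental 1 lay below and the other parental libraries above all GlnIND libraries, so the log2 fold change was 0.00 (edgeR SE 0.241, adjusted p = 0.988), and -0.30 without parental 1 (adjusted p = 2.2e-05 in edgeR). The remaining tested receptors, TNFRSF11A, TNFRSF14, TNFRSF19 and TNFRSF21, had log2 fold changes of -0.65 to -0.08 and were not called. Without parental 1 TNFRSF14 (-0.79), TNFRSF19 (-0.73) and TNFRSF21 (-0.11) passed the test. TNFRSF21 also passed with the neighbour shift removed (-0.20).

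**Figure D4:**
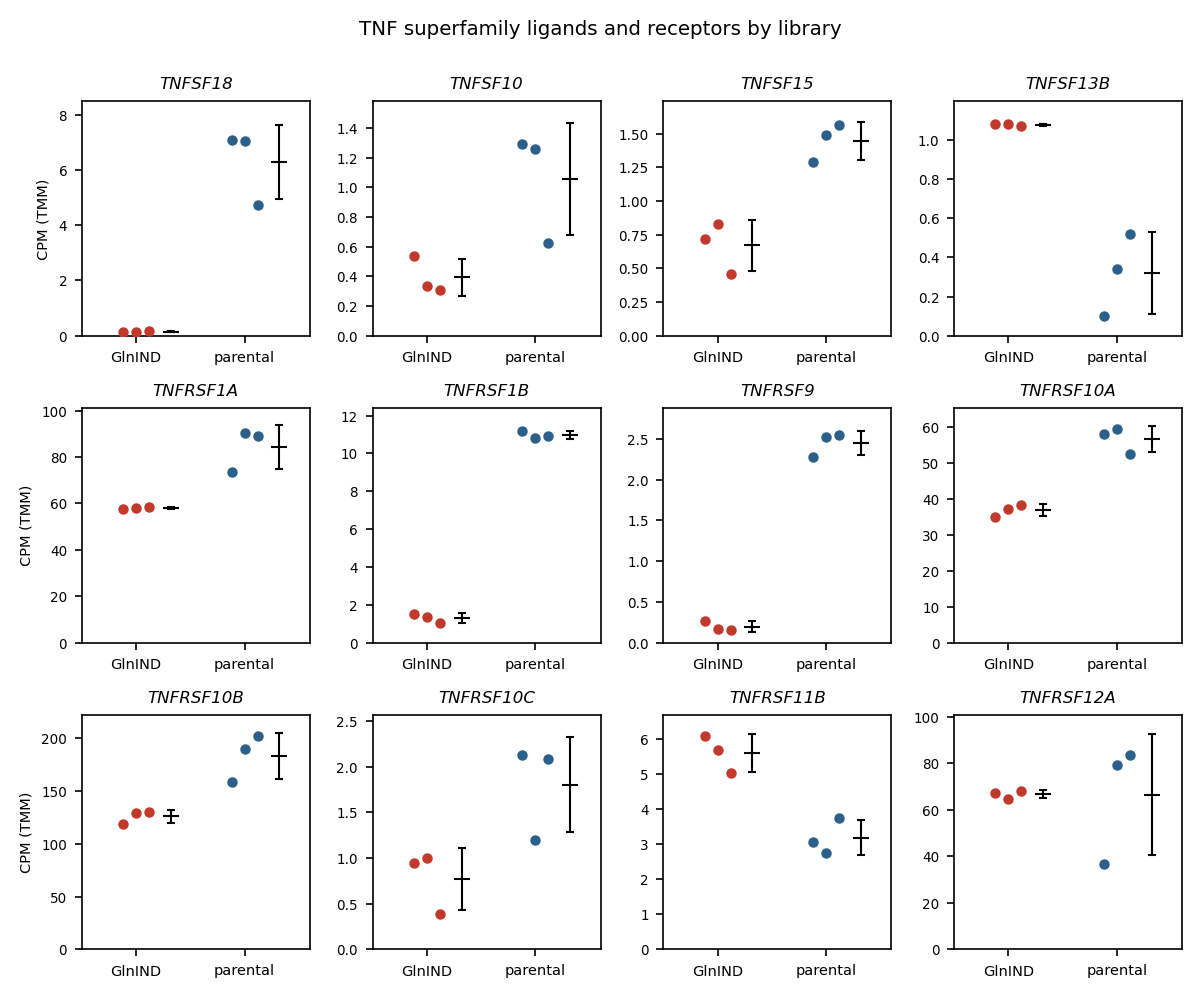
TMM-scaled CPM of 4 ligands and 8 receptors of the TNF superfamily in 3 GlnIND libraries (red, left) and 3 parental libraries (blue, right), each panel on its own linear axis from 0, with the mean and 1 SD beside the points. TNFSF18, TNFRSF1B and TNFRSF9 lie near 0 in GlnIND, TNFSF13B and TNFRSF11B lie higher in GlnIND, and parental 1 of TNFRSF12A lies apart from the other parental libraries.

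The 10 genes not tested were TNFSF8, TNFSF11, TNFSF14, TNFRSF4, TNFRSF6B, TNFRSF8, TNFRSF13B, TNFRSF13C, TNFRSF17 and TNFRSF18, most of them known from lymphocytes or bone. None exceeded 0.461 CPM in any library. TNFSF11, the osteoclast factor RANKL, and TNFRSF13B were at 0 in all 6 libraries, and 8 of the 10 stayed at or below the floor of 6 counts, or 0.244 to 0.329 CPM, in every library. TNFRSF6B shares 90.4% of its exon bases with the row RTEL1-TNFRSF6B, which also had 0 counts, so its low value does not give its expression.

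Genes of the family that carry other symbols gave further pairs. Of 15 such genes 7 were tested, of which 2 rose, 3 fell and 2 were not called (median log2 fold change -0.32). These shares, 28.6% higher and 42.9% lower against 28.4% and 27.9% of all tested genes, rest on few genes. EDA2R, a receptor of ectodysplasin, had 2.11, 1.12 and 2.11 CPM in GlnIND libraries and 0 in all parental libraries, and was at least 18.8-fold higher (6 counts over the parental group as the floor). Ectodysplasin itself, EDA, had 3.41, 2.66 and 3.07 CPM in GlnIND libraries and 0.694, 0 and 0.624 CPM in parental libraries. The groups of EDA did not overlap, and it rose by 2.73 on the log2 scale (edgeR SE 0.510, adjusted p = 0.00134). NGFR, the low-affinity neurotrophin receptor, had 0.404, 0.791 and 0.154 CPM in GlnIND libraries and 5.6, 9.21 and 6.71 CPM in parental libraries. All GlnIND libraries were far below, a fall of 3.99 on the log2 scale (edgeR SE 0.393, adjusted p = 2.65e-05). Without GlnIND 2, the highest of these libraries, NGFR stood at -4.70. The other genes that fell were CD40 and LTBR, both receptors of the noncanonical branch, by 1.10 and 1.03 on the log2 scale (-1.42 and -0.57 with the neighbour shift removed), and the death receptor FAS had a log2 fold change of -0.32 (adjusted p = 0.0815 in edgeR). These 3 were named after their values were seen.

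TNF, LTA and LTB, the ligand genes of the major histocompatibility complex, were listed at 0 in every library. So were their neighbours DDX39B and MRPS18B, which most cells use, and BAG6 had only 55 GlnIND and 19 parental counts. A listed 0 in that region is therefore no evidence that TNF was silent, and these values were chosen for display after they were seen.

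Among 28 further adaptors, kinases and ubiquitin enzymes of the pathway, 6 rose, 10 fell and 12 were not called (median log2 fold change -0.13). These are 21.4% higher and 35.7% lower, near the 28.4% and 27.9% of all tested genes. XIAP, an inhibitor of caspases, had 48.0, 46.1 and 47.4 CPM in GlnIND libraries and 131, 122 and 126 CPM in parental libraries. It fell 2.68-fold without overlap (log2 fold change -1.42, edgeR adjusted p = 2.89e-07), in a window of neighbours with a median of -1.03, and with that shift removed it stood at -0.39 (adjusted p = 0.000945 in edgeR). IKBKE, an IkB kinase-related kinase, had 10.9, 9.24 and 11.3 CPM in GlnIND libraries and 19.0, 23.3 and 22.1 CPM in parental libraries, a fall of 1.03 on the log2 scale (adjusted p = 0.000101 in edgeR). Its groups lay clearly apart. IKBKG, the regulatory subunit NEMO, had 7.08, 8.41 and 8.18 CPM in GlnIND libraries and 15.8, 16.5 and 14.8 CPM in parental libraries and fell by 0.99 on the log2 scale (adjusted p = 9.37e-05 in edgeR). The genes around IKBKG had a median of -0.82, and its call was lost with that shift removed (-0.17, edgeR adjusted p = 0.258). A near-identical pseudogene copy of IKBKG can also take its reads, so its value is uncertain. With library totals 11 of the 28 rose, and with the neighbour shift removed 3 did. The median over all tested genes was 0.18 and 0.00 in these settings, against 0.03 with TMM factors.

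MAP3K14, the NF-kB-inducing kinase NIK that BIRC2, BIRC3, TRAF2 and TRAF3 mark for degradation, was named after its values were seen. It had 37.3, 38.7 and 37.6 CPM in GlnIND libraries and 18.1, 21.9 and 21.1 CPM in parental libraries. All GlnIND libraries lay above all parental ones, and MAP3K14 rose by 0.90 on the log2 scale (edgeR SE 0.0965, adjusted p = 4.6e-05). With the neighbour shift removed it stood at 0.53 (adjusted p = 0.00141 in edgeR). The gene shares 14.7% of its exon bases with MAP3K14-AS1 on the opposite strand. RIPK1, the kinase of the TNF receptor complex, fell by 0.81 on the log2 scale (adjusted p = 8.99e-06 in edgeR), and FADD, the adaptor of death receptors, rose by 0.71 (adjusted p = 0.00117 in edgeR). The FADD call was lost with the neighbour shift removed (0.14, adjusted p = 0.384 in edgeR). CASP8 and its regulator CFLAR were not called, at log2 fold changes of -0.22 and 0.04. CASP8 passed without parental 3 (-0.30), and CFLAR with library totals (0.20) and the neighbour shift removed (0.22). These 4 were also named after their values were seen.

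Of 25 known NF-kB target genes outside the symbol rule 20 were tested, of which 3 rose, 13 fell and 4 were not called. Their median log2 fold change was -1.0, against 0.03 over all genes. The lower share was 65.0%, against 27.9% of all tested genes. Called higher were 3 of the 20, against 28.4% of all tested genes. The list overlaps with cytokines already known to be lower in these libraries and is no independent evidence of the direction. CSF2, a colony-stimulating factor, had 0.807, 0.999 and 0.384 CPM in GlnIND libraries and 12.6, 20.6 and 23.8 CPM in parental libraries. CXCL1, a neutrophil chemokine, had 2.69, 2.08 and 1.65 CPM in GlnIND libraries and 32.5, 30.5 and 31.7 CPM in parental libraries. The chemokine CXCL8 had 19.95, 17.2 and 16.9 CPM in GlnIND libraries and 114, 123 and 130.1 CPM in parental libraries. All 3 lay far lower in every GlnIND library, at -4.71, -3.89 and -2.76 in log2 fold change (adjusted p at most 3.22e-06 in edgeR).

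Some NF-kB targets went the other way, and these were named after their values were seen. BCL2A1, a survival protein of the BCL2 family, had 24.0, 19.4 and 18.6 CPM in GlnIND libraries and 3.67, 3.89 and 4.47 CPM in parental libraries. It rose 5.14-fold without overlap (log2 fold change 2.36, edgeR SE 0.150, adjusted p = 1.83e-06). PLAU, the urokinase plasminogen activator, rose by 0.62 and PTGS2, a prostaglandin synthase, by 0.43 on the log2 scale (adjusted p = 3.59e-05 and 0.00517 in edgeR). PLAU shares 28.7% of its exon bases with C10orf55 on the opposite strand.

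The position of the genes was compared with the change around them, since the tested genes around some of them shifted together. For each of the 47 tested genes the median log2 fold change of the 40 nearest tested genes was taken. It lay below -0.5 for 5 genes, above 0.5 for 1 (RELA) and within 0.5 of 0 for 41, with a median of 0.07 over the 47 windows. Of the 28 lower genes 26 lay in windows within 0.5 of 0, and the exceptions were BIRC2 and BIRC3. With the shift removed from every gene, 30 members were called lower, 25 of them the same genes, and 7 higher, 6 of them the same. Over all genes 6806 were called with the shift removed and 7853 without its removal. TNFRSF11A, in a window of -0.69, then stood at 0.61 (adjusted p = 0.00419 in edgeR), and TNFSF13B, in a window of -0.59, at 2.33 (adjusted p = 0.00195 in edgeR). These p-values leave out the error of the removed shift.

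**Figure D5:**
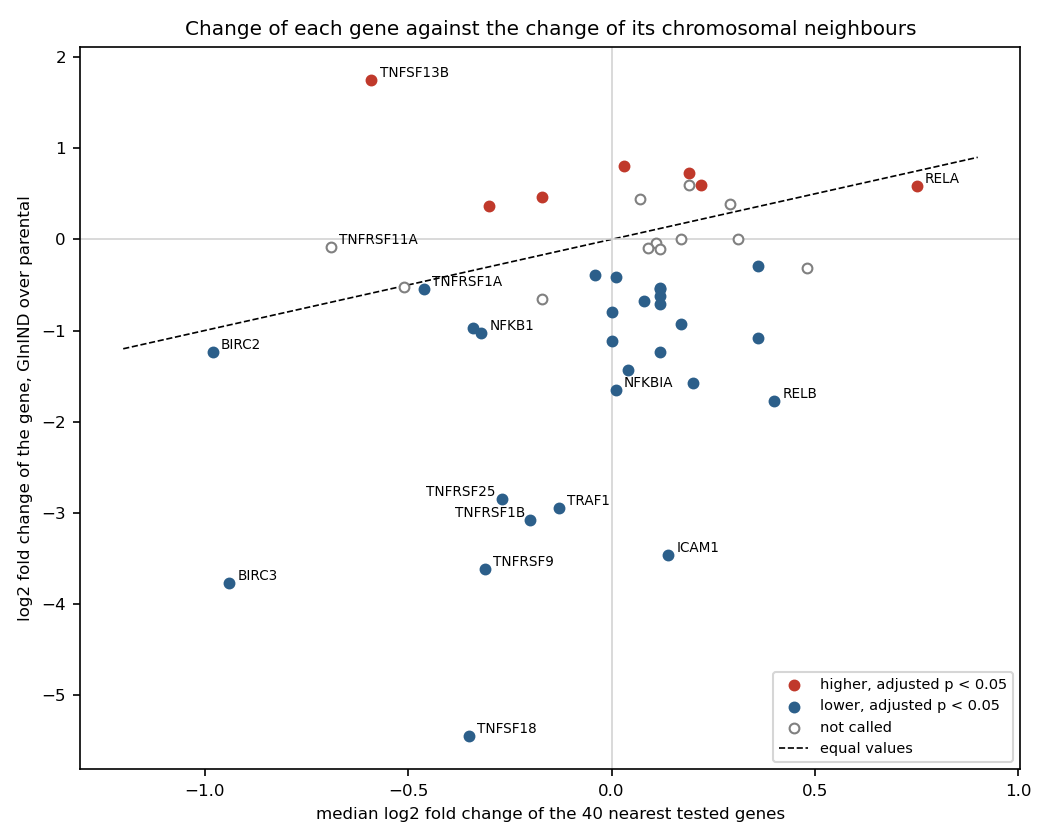
Log2 fold change of each of the 47 tested genes, GlnIND over parental (vertical axis), against the median log2 fold change of the 40 tested genes nearest to it on its chromosome (horizontal axis), both linear, with a dashed line of equal values. RELA, BIRC2 and TNFRSF1A lie near the line, while BIRC3, ICAM1, TNFSF18, TNFRSF9, TNFRSF1B, TNFRSF25 and TRAF1 lie far below it.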

How the data were processed

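The deposited values are raw counts of reads for each gene symbol, in a table for every library and in a joint matrix, from polyA libraries (Kapa mRNA HyperPrep, per the labels' protocols). FastQC, STAR, featureCounts, DESeq and the build hg19 are named in the submitters' processing notes. Versions, annotation, strand setting and the rule for multi-mapping reads are not given in the sources used here. Replicates 1 and 3 of either group carry each other's names in the matrix, and the per-library tables were followed.

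Counts were tested two-sided with edgeR 4.0.16 (R 4.3.3) by glmQLFTest after glmQLFit, with group alone in the design (TMM factors, filterByExpr with a minimum count of 10 and a minimum total of 15) over all 13949 genes that passed, with Benjamini-Hochberg adjustment and a threshold of 0.05. Total counts per library were 18256219 to 24594248. Low counts were mostly even (60.6% to 65.0% of genes under 20 counts, against 49.8% to 51.2% above 1000), so the floor was set at 3 read pairs, or 6 counts. Floors cover counting error only. An exact permutation test of 3 against 3 libraries cannot give a p under 0.1. Neighbours followed the gene order of RefSeq GRCh38.p14, and 466 tested genes without a position kept a shift of 0. Exon overlaps came from GENCODE. Promoters were scanned with 4 spellings of the motif: GGG, any pair and TTTCC, the same with AA as the pair, GGG, any 4 bases and TCC, and the kappaB consensus.

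The members and the lists were chosen with earlier results of these data known. In each role the named genes are the up to 4 called members with the largest absolute change and a mean of at least 1 CPM in a group, plus all NF-kB subunits, both kinases, NFKBIA, NFKBIB, NFKBIE and TNFAIP3, and up to 3 such genes per list. Further genes were named after their values were seen. Alternatives were RLE, upper-quartile and total scaling, no filter, a minimum of 1 CPM in 3 libraries, leaving out each library, a replicate block, DESeq2 1.42.0, limma-voom (limma 3.58.1), the neighbour shift removed, and the matrix. The statistics were tested on simulated data. 1 gene of a marker list is not reported here.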

Additional observations from a re-analysis of the deposited data

How the results depend on the processing

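Over the 15 alternatives other than the matrix, members called lower numbered 22 (without GlnIND 3) to 33 (without parental 1) and members called higher 6 to 10, and all genes called 6516 to 9280. Of 1071 values of 67 genes under all alternatives, the matrix included, 990 kept direction and side of the threshold, 36 lost the call, 25 gained it and 20 changed sign. The matrix holds the same counts with replicates 1 and 3 of each group exchanged. Its 67 values among the 990 therefore had to be the same and are no check. Besides RELA (-0.17 with the neighbour shift removed), the genes that changed sign were not called on all 6 libraries with TMM factors. CHUK was at 0.05 and 0.11 with upper-quartile and total scaling, NFKBIB at 0.09 and 0.15, and TNFRSF11A at 0.01 and 0.07. TNFRSF11A was at 0.61 with the neighbour shift removed, and TNFRSF10D and TNFRSF21 were at 0.04 and 0.05 with library totals. TNFRSF12A was at -0.01 with RLE factors and DESeq2, 0.00 without a filter, -0.17 with the neighbour shift removed, and -0.30 to 0.18 with 1 library left out. With 1 library left out NFKBIB ranged from -0.06 to 0.01 and CFLAR from 0.00 to 0.06. In the adaptor list, where 6 genes rose, 11 did so under total scaling and 3 after removal of the neighbour shift. In these settings the median over all tested genes was 0.18 and 0.00. The cause was not tested, except that the scalings shift all genes alike. The replicate numbers did not pair the libraries (correlations of -0.063, 0.030 and -0.037 between deviations of same-numbered libraries). With the replicate block 7303 genes were called, of the members 28 lower and 8 higher. TNFSF4 (-0.93) lost its call under the block, and TNFRSF19 (-0.50) and TRAF7 (0.42) gained one. Depth limits members near 6 counts per library, TNFSF10, TNFRSF9, TNFRSF25 and TNFSF18 among them, and 3 libraries per group limit all of them.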

Other observations

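The kB motif with AA as its free pair was rare before transcript starts. Of the 21 tested genes with it 12 (57.1%) were called lower in GlnIND cells, against 28.9% of all tested genes with a promoter sequence. The members NFKB1, NFKBIA, NFKBIZ, REL and TNFRSF9 are among the 12, and of the other 16 genes 7 (43.8%) were lower. For the motif with any pair 63 of 205 genes outside the members (30.7%) were lower. No test was made of these shares, and the spelling was singled out after its values were seen.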
